A study of Homo sapiens with 2 samples.

Results

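CXCL12, CXCR4 and ACKR3 form the ligand and receptor set that guides granule cell precursors of the cerebellum. OTX2 peaks were examined around these 3 genes, out of 19881 protein-coding genes of the autosomes and sex chromosomes. The genes were taken by name, and every deposited OTX2 peak with at least 1 bp inside the GENCODE record of a gene, extended by 100 kb on each side, was assigned to it. This gave 21 of 137412 peaks, namely 14 at CXCR4, 6 at CXCL12 and 1 at ACKR3. The data come from D283, an established medulloblastoma (MB) cell line, grown as tumorspheres that express OTX2. The medium held 20 ng/ml EGF and 20 ng/ml bFGF. The paper calls these tumorspheres high in OTX2, a term it also uses for those given a control siRNA. A single library each of OTX2 ChIP and of input chromatin without antibody was sequenced, so no value has a replicate error and no test between conditions could be made. D283 is a single cell line, and no library with lowered OTX2 and no RNA measurement entered this comparison, so the cell type could not be checked against expression markers.

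CXCL12 is a secreted chemokine, released in the developing cerebellum by the meninges, and it holds granule precursors in the outer layer where they divide. CXCR4 is its G protein-coupled receptor, which signals through inhibitory G proteins and drives directed migration. ACKR3, also called CXCR7, is an atypical receptor that binds the same ligand, recruits arrestins in place of G proteins and clears CXCL12 from the surroundings. OTX2 is a homeodomain transcription factor of the fore- and midbrain and of cerebellar progenitors.

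In ChIP-Seq, sheared chromatin is pulled down with an antibody to the protein, and a peak marks where its fragments pile up above the input. The ChIP library kept 61259377 fragments after removal of duplicates and the input 22521186, so the ChIP was 2.72 times as deep. Pileup is the fragment coverage at the summit, the highest point of a peak, scaled by the authors' peak calling. All pileups were whole multiples of 0.735 within 0.02 of a step, and this step was taken as 1 ChIP fragment. It equals 2 times the ratio of input to ChIP fragments, and this factor of 2 was read from the values and is not stated by the study, so fragment numbers and their intervals rest on that reading. Fold enrichment is the ratio of pileup to local input, with 1 added to both. Over all peaks the median was 53 fragments (range 15 to 461) and the median fold enrichment was 6.10. The intervals given for fragments are exact Poisson 95% intervals and cover counting error only. The TSS is the 5′ end of the gene record unless the canonical transcript, the representative one in GENCODE, is named, and all positions are of GRCh38.

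The promoter sequences are shown because the peaks closest to CXCR4 and CXCL12 missed them. Each is the 250 bases before the RefSeq start that coincides with the canonical TSS. They are written 5′ to 3′ on the minus strand on which both genes lie, and credited to RefSeq (GRCh38.p14). The CXCR4 bases lie at chr2:136118150-136118399, within no annotated exon, and the nearest peak edge was 441 bp away on the gene side. The CXCL12 bases lie at chr10:44385098-44385347, also outside any exon, with the nearest peak 1446 bp farther upstream. RefSeq lists further CXCR4 starts inside the gene record. The stretches before them overlap exons, lay 161 and 805 bp from the nearest peak and are not shown.
CXCR4: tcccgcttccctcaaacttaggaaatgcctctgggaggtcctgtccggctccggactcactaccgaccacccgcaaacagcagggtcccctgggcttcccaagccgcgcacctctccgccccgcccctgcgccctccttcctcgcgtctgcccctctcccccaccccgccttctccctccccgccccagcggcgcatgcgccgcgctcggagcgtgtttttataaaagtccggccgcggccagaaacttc
CXCL12: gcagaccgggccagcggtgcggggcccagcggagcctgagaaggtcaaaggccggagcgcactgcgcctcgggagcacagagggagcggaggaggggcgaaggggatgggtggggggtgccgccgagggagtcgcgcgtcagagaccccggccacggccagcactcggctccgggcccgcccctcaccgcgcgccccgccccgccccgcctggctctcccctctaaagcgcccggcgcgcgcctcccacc
TAATCC and TAATCT, the OTX2 motifs named by the study, were searched on both strands. Neither occurs in these bases, which are therefore all in lower case. Of 35116 RefSeq promoter stretches of the same length, 11.4% held at least 1 of these motifs and 29.5% overlapped a peak. No match says only that these letters are absent from these stretches. RefSeq promoter bases were matched for both genes but not for ACKR3, and the sequence inside the peaks was not analysed here.

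The 3 genes differed widely in how many OTX2 peaks surrounded them. A window of this size held at least 1 peak for 97.3% of protein-coding genes, so the presence of a peak in all 3 windows says little by itself. The CXCR4 window of 204.8 kb held 14 peaks, close to the median of 13 over protein-coding genes (quartiles 7 and 20). The CXCL12 window of 216.3 kb held 6, more than 19.0% of genes. The ACKR3 window of 214.6 kb held 1, more than 2.68% of genes. Per 100 kb this was 6.83 peaks for CXCR4, 2.77 for CXCL12 and 0.466 for ACKR3, against a median of 5.18. The windows were of nearly equal length, so the order was the same in both measures. Peaks covered 4.37% of the CXCR4 window, 1.41% of the CXCL12 window and 0.120% of the ACKR3 window, and the median over genes was 2.66%. CXCR4 and ACKR3 lie on the same chromosome, where 47.9 peaks per Mb were called, and chromosome 10, which carries CXCL12, had 47.6. The density of the whole chromosome was thus nearly equal for the 3 genes.

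**Figure D1:**
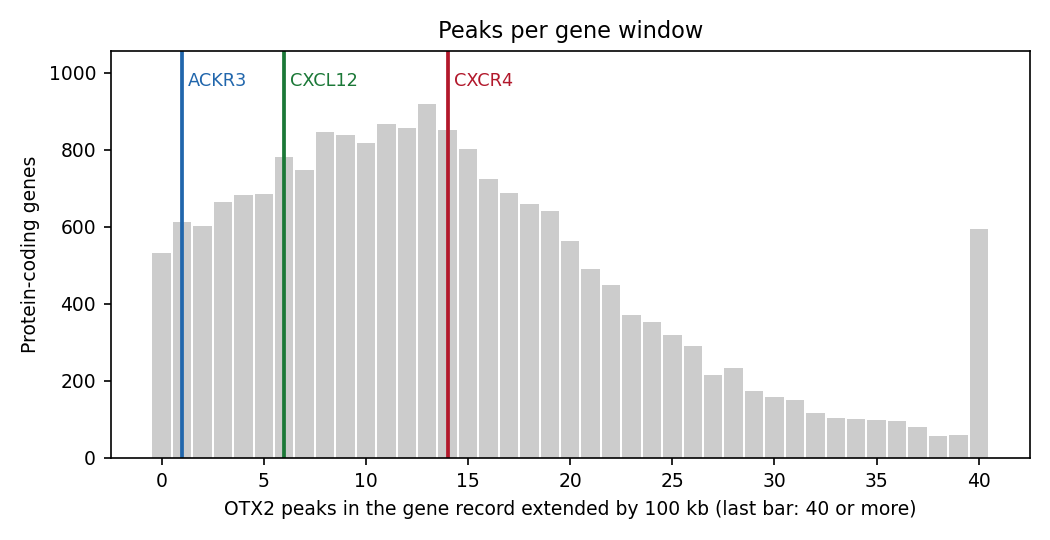
Number of protein-coding genes (vertical axis) by the number of OTX2 peaks in the gene record extended by 100 kb (horizontal axis, last bar 40 or more), with coloured lines for the 3 genes. CXCR4 with 14 peaks lies near the median of 13, while CXCL12 with 6 lies below the lower quartile of 7 and ACKR3 with 1 is near the left edge.

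Within the extended windows, CXCR4 carried the strongest OTX2 binding of the set, and it lay upstream of the gene rather than at the promoter. The gene (ENSG00000121966.8) spans positions 136114349 to 136119177 of chromosome 2, minus strand. Of its 14 peaks, 8 had their summit upstream of the TSS, 2 inside the gene record and 4 downstream. The 14 peaks ranged from 17 to 301 fragments with a median of 73, and 9 had a fold enrichment of at least 5. Most peaks of the whole list reach that value, since 33.0% of all peaks lay below 4.73 and 44.2% below 5.56. No other protein-coding gene record entered the window.

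The strongest of these, from 136141229 to 136142344, had its summit 22.6 kb upstream of the TSS in sequence with no gene record. Its pileup was 221.32, or 301 fragments (268 to 337), at an enrichment of 32.5-fold with −log10 q at 254. In the whole list 1432 peaks had a higher fold enrichment, which places it above 99.0% of single peaks. As the strongest of its window, it was higher than the strongest in 88.9% of protein-coding gene windows, where the median was 19.1. It held 24.0% of the fragments summed over the 14 summits, and its interval overlapped that of no other peak in the 3 windows. The local input at this summit was 5.85, within the range of 3.99 to 8.19 at the CXCR4 peaks. The genome-wide background set a lower limit of about 3.99 to this value, and 26.4% of all peaks lay there.

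The other 7 upstream peaks fell into taller and lower ones. The peak from 136215311 to 136215814 lay 96.4 kb upstream with a pileup of 133.08, equal to 181 fragments (156 to 209), enriched 17.2-fold. The peak from 136179167 to 136180335 lay 60.8 kb upstream, with a pileup of 89.70, 122 fragments (101 to 146) and a fold enrichment of 18.2. The lower bounds of these 2 intervals were above the upper bounds of the 5 peaks that follow. A peak from 136154933 to 136155320, 36.0 kb upstream, had a pileup of 55.88 (76 fragments, fold enrichment 9.48). One from 136125356 to 136126496, 6.4 kb upstream, had a pileup of 51.47 (70 fragments, fold enrichment 6.56). Their intervals, 59.9 to 95.1 and 54.6 to 88.4 fragments, overlapped, so these 2 were not distinguishable in height. The peak from 136145201 to 136145546, 26.2 kb upstream, had a pileup of 38.23 (52 fragments, 38.8 to 68.2), close to the median of all peaks, and its interval overlapped both of these. The remaining 2 upstream peaks were low. They lay from 136156285 to 136156905 (37.3 kb, pileup 23.53, 32 fragments) and from 136190545 to 136190795 (71.6 kb, pileup 12.50, 17 fragments). The last was the weakest of the 14 in height, with a −log10 q of 1.90.

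Inside the CXCR4 record, 1 peak was weak and the other was close to the median of all peaks. The peak from 136117290 to 136117709 had a pileup of 17.65, or 24 fragments (15.4 to 35.7), and was enriched 2.33-fold, with −log10 q at 1.79. Its summit lay 581 bp downstream of the canonical TSS, in intron 1 of the canonical transcript and in the untranslated exon 1 of 2 other transcripts. Of all peaks, 0.655% had a lower fold enrichment. The other peak, from 136114369 to 136114768, peaked in the 3′ untranslated part of exon 2, with a pileup of 32.35 (44 fragments, 32.0 to 59.1), enriched 5.56-fold, above 44.2% of peaks. A peak overlapping the record was present at 69.5% of protein-coding genes. None of the 7 annotated CXCR4 transcripts started inside a peak, and the distance from a start to the nearest peak edge ran from 28 to 1468 bp.

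The contrast between the upstream peak and the promoter was wide compared with other genes. In the window reaching 5 kb before and 2 kb past the TSS, which held a peak at 57.2% of protein-coding genes, CXCR4 had only the peak with a fold enrichment of 2.33. Among the 11367 genes with a peak there, this maximum was higher than for 0.466% of genes, and the median was 6.39. The strongest peak of the CXCR4 window exceeded it 13.9-fold in fold enrichment, against a median of 2.95 over those genes, and 36 genes had a higher ratio. This ratio was chosen after the values were seen, and it rests on a peak of 24 fragments. It also depends on the 5 kb limit, since the CXCR4 peak 6.4 kb upstream, with a fold enrichment of 6.56, lay just outside.

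Downstream of CXCR4, the peak from 136095419 to 136095881, 23.5 kb from the TSS, had a pileup of 58.09 (79 fragments, 62.5 to 98.5). The peak from 136107117 to 136107465, 11.9 kb from the TSS, had a pileup of 28.68 (39 fragments, 27.7 to 53.3). A pair lay near the far end, from 136032345 to 136033493 with a pileup of 60.29 (82 fragments, fold enrichment 12.0) and from 136035603 to 136036244 with a pileup of 98.53 (134 fragments, fold enrichment 14.0). The summits of this pair lay 86.0 and 83.2 kb from the CXCR4 TSS.

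**Figure D2:**
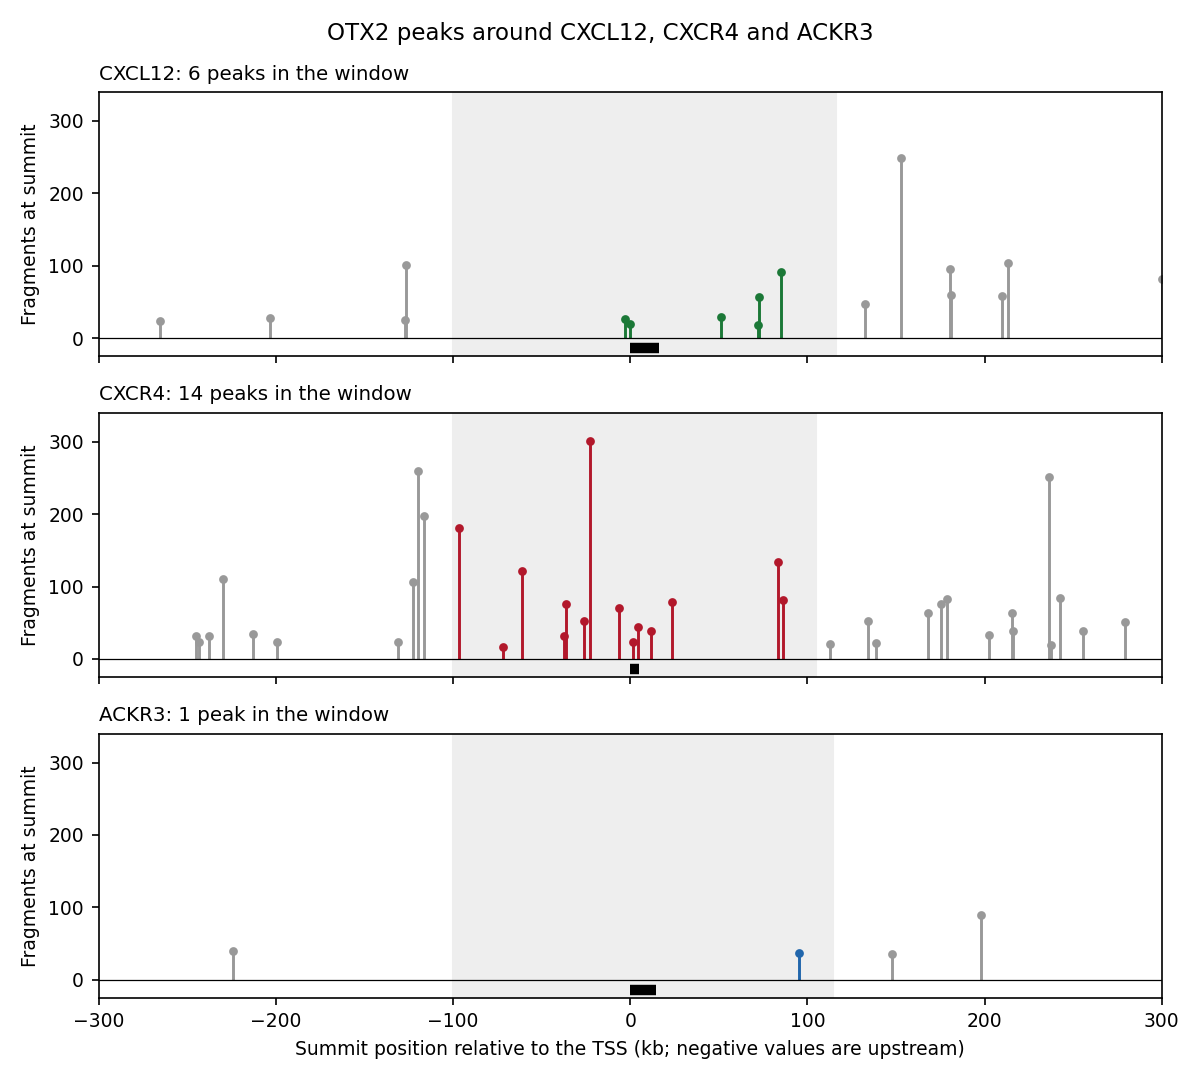
ChIP fragments at each peak summit (vertical axis) against the summit's distance from the TSS in kb (horizontal axis, negative upstream in the direction of the gene) for CXCL12, CXCR4 and ACKR3. Coloured stems are peaks in the shaded window, grey stems are peaks outside it and the black bar is the gene record. The tallest stem in the CXCR4 window, with 301 fragments, stands 22.6 kb upstream, the CXCL12 record has no stem over it and ACKR3 has 1 low stem near the right edge of its window.

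CXCL12 had few peaks, most of them low, and none over the gene itself. The gene (ENSG00000107562.18) spans positions 44370165 to 44386493 of chromosome 10, minus strand. Of its 6 peaks, 2 lay upstream, 4 downstream and 0 inside the record, and no other protein-coding gene record entered the window. Heights ranged from 18 to 92 fragments with a median of 27.5, and 2 peaks had a fold enrichment of at least 5, which most peaks of the whole list reach. The stretch without a peak around the TSS was 51.6 kb long and took in the whole gene record. Of genes for which this stretch could be measured, 70.5% had a shorter one, and the median was 18.6 kb.

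Both upstream CXCL12 peaks lay within 5 kb of the TSS. The nearer, from 44386793 to 44387058, peaked 346 bp before the record and 1742 bp upstream of the canonical TSS. Its pileup was 14.71, or 20 fragments (12.2 to 30.9), with 2.62-fold enrichment and −log10 q at 1.97. The other, from 44389123 to 44389528, lay 2879 bp upstream with a pileup of 19.12, 26 fragments (17.0 to 38.1), 4.02-fold enrichment and −log10 q at 6.09. Their intervals overlapped, and both were well below the median height of all peaks. The maximum of 4.02 near the TSS was higher than that of 16.9% of the genes with a peak there. The 7 CXCL12 transcripts started 300 to 1750 bp from the nearest peak edge, and none inside a peak.

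The taller CXCL12 peaks were downstream. The peak from 44301181 to 44302447, 85.0 kb from the TSS, had a pileup of 67.65, 92 fragments (74.2 to 113) and a fold enrichment of 8.58 over a local input of 7. The peak from 44313816 to 44314201, 72.5 kb from the TSS, had a pileup of 41.91, 57 fragments (43.2 to 73.9) and a fold enrichment of 8.61 over a local input of 3.99. The fold enrichments were nearly equal although the heights differed, since the local input differed. The peak from 44314494 to 44314800 followed 292 bp after it with a pileup of 13.23 (18 fragments), and the peak from 44334724 to 44335146, 51.5 kb from the TSS, had a pileup of 21.32 (29 fragments). All 4 summits lie within the RefSeq record of the long noncoding RNA LOC124902544, and the first is also in an intron of a GENCODE long noncoding RNA. The strongest fold enrichment in the CXCL12 window was higher than in 12.5% of protein-coding gene windows, where the median was 19.1.

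ACKR3 lay in a long stretch without OTX2 peaks. The gene (ENSG00000144476.6) spans positions 236567787 to 236582354 of chromosome 2, plus strand. Its only peak, from 236663245 to 236663502, had its summit 95.5 kb downstream of the TSS, close to the end of the window, in sequence with no GENCODE gene record. The pileup was 27.21, or 37 fragments (26.1 to 51.0), at 4.03-fold enrichment over a local input of 6, with −log10 q at 8.22. No peak overlapped the record or lay near the TSS. The nearest summit to the TSS was farther away than for 96.3% of protein-coding genes, where the median was 1.74 kb. The stretch without a peak around the ACKR3 TSS measured 319.3 kb, and 908 protein-coding genes had a longer one. It also takes in the 5′ part of the record of IQCA1, the only other protein-coding gene in the window.

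Peaks just outside the windows show what the limit of 100 kb left out. For CXCR4 the nearest ones were 108.0 kb beyond the downstream end of the record, with a pileup of 15.44 and a fold enrichment of 3.30, and 115.9 kb beyond the upstream end, with a pileup of 144.85 (197 fragments) and a fold enrichment of 25.4. For CXCL12 they were 115.8 kb downstream (pileup 34.56, fold enrichment 4.44) and 126.2 kb upstream (pileup 74.26, fold enrichment 13.8). For ACKR3 they were 223.9 kb upstream (pileup 28.68, fold enrichment 5.95) and 133.3 kb downstream (pileup 25.73, fold enrichment 5.36). Within 500 kb on either side of the record, CXCR4 had 26 summits upstream and 32 downstream, CXCL12 had 11 and 17, and ACKR3 had 5 and 3. The order of the 3 genes by number of summits was thus the same at this distance. The order by highest fold enrichment was not the same. The strongest peak 100 to 200 kb downstream of CXCL12 had a fold enrichment of 33.8, well above any in its window. It was also slightly above the 32.5 of the strongest CXCR4 peak. In height the order did not change there, since the tallest summit of that CXCL12 stretch had 249 fragments, against 301 for the CXCR4 peak.

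**Figure D3:**
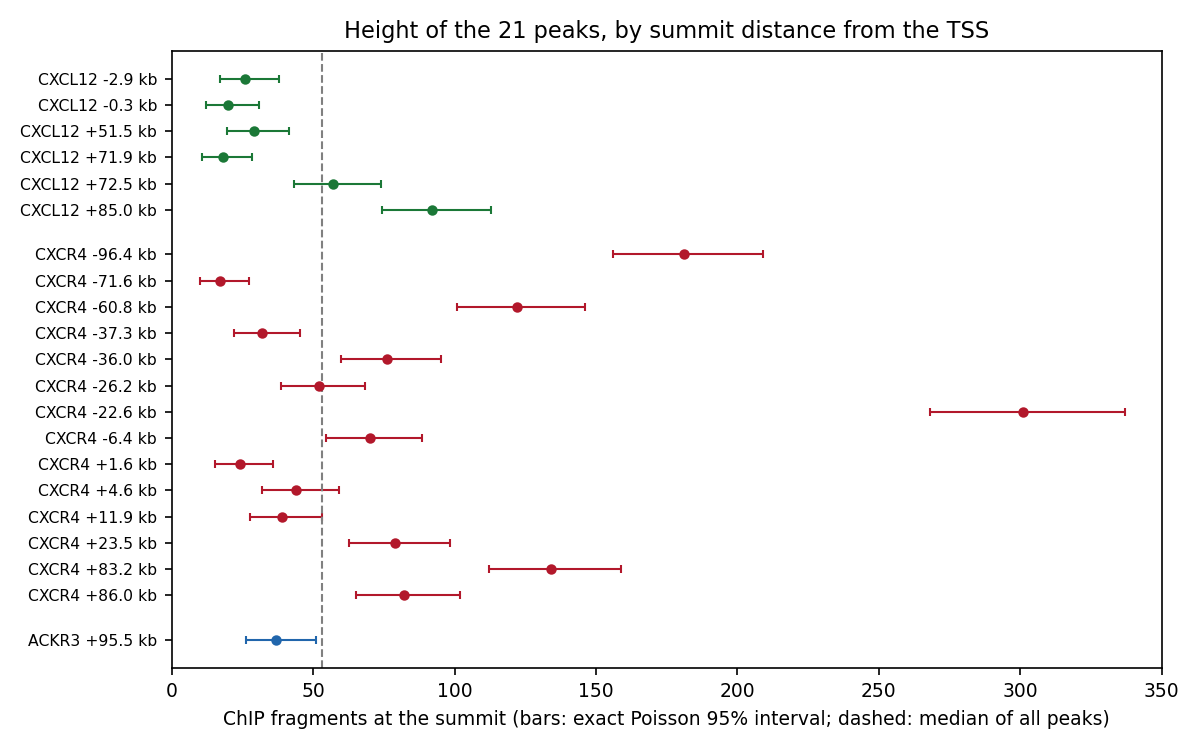
ChIP fragments at the summit (horizontal axis) for each of the 21 peaks (rows, labelled by gene and summit distance from the TSS), with exact Poisson 95% intervals as bars and a dashed line at the median of all peaks, 53 fragments. The CXCR4 peak at −22.6 kb, with 301 fragments, stands apart from the other 20, and the peaks nearest the CXCL12 and CXCR4 starts, with 20 and 24 fragments, lie left of the line.

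The low peaks set the limit on what could be read near the starts of these genes. The CXCR4 peak in intron 1, with 24 fragments, and the nearer CXCL12 peak, with 20, had intervals that overlapped each other, so their order in height was not resolved. Of the 21 peaks, 3 had a −log10 q under 2, and 2 of these 3 were the peaks closest to the CXCR4 and CXCL12 TSS. For ACKR3, binding too weak to be called was not detectable at this depth.

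The genes that act with the CXCL12 receptors were compared by count. They comprise 37 partners of the axis, including further ligands, G proteins, arrestins, receptor kinases and downstream kinases. All 37 had a peak in the extended window, with a median of 18 peaks and 5.67 peaks per 100 kb, and 21 of 37 (56.8%) had a peak near the TSS, close to the 57.2% of all protein-coding genes. The highest fold enrichment near the TSS was 23.9 at GNAI2, an inhibitory G protein subunit through which CXCR4 signals, 87 bp upstream of its TSS with 226 fragments. HIF1A, the oxygen-regulated transcription factor that induces CXCR4, followed with 20.6 at 1595 bp downstream. HMGB1, which binds CXCL12 and enhances its action on CXCR4, had 19.7. The kinases MAPK3 and JAK2 had 15.5 and 11.8. These 5 were named because their values were the highest of the 37. That they exceed the 2.33 of CXCR4 and the 4.02 of CXCL12 is therefore no comparison of groups. Among the 37 partners, 23 had more peaks in the window than CXCR4. Their windows differ in length, and per 100 kb only 14 had more than CXCR4. A stronger peak than that of CXCR4 was present in the windows of 7. AKT1, with 1 peak, had as few as ACKR3.

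The other chemokine receptors had fewer peaks. Of 21, 19 (90.5%) had a peak in the extended window, against 97.3% of all protein-coding genes, with a median of 6 and 2.93 per 100 kb. Near the TSS 5 (23.8%) had one, against 57.2% of all. CXCR6, the receptor for CXCL16, had the strongest of these at 22.2, followed by the atypical receptors ACKR4 (8.81) and ACKR2 (5.21), CCR8 (5.21) and CCR10 (4.92). CCR2, a receptor for inflammatory CC chemokines, had no peak in the window. Several of these genes are neighbours, and their 170 gene-to-peak assignments came from 148 distinct peaks, so the receptors are not independent. CXCR4 had more peaks in its window than 17 of the 21 receptors had, while 3 had more, and 2 had a stronger peak.

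**Figure D4:**
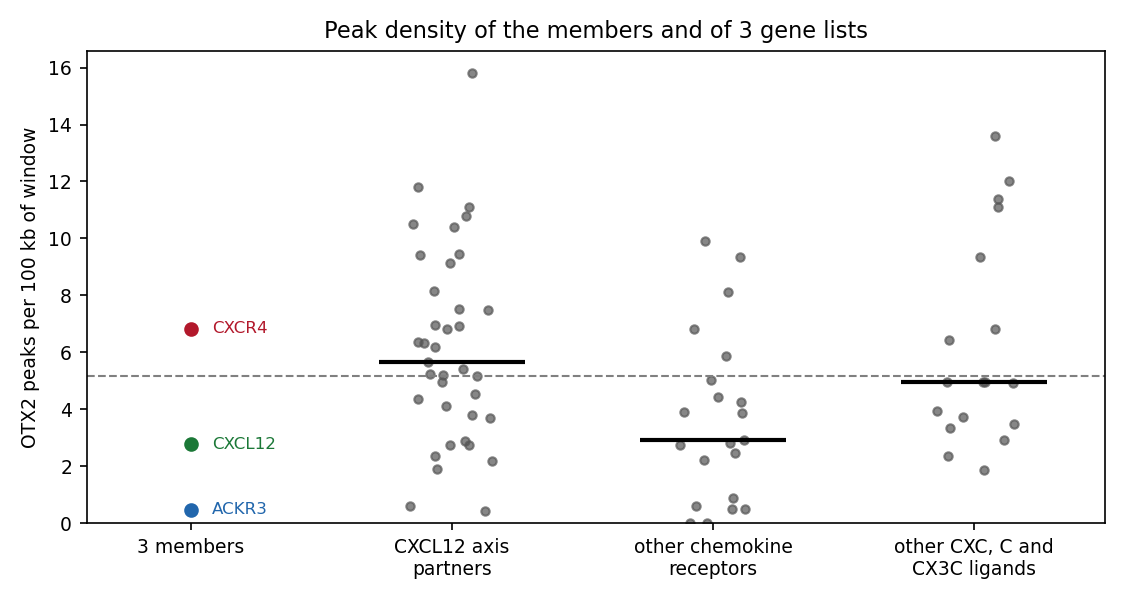
OTX2 peaks per 100 kb of extended gene window (vertical axis) for CXCL12, CXCR4 and ACKR3 and for each gene of 3 lists, with black bars at the list medians and a dashed line at the median of all protein-coding genes, 5.18. CXCR4 at 6.83 lies above that line, CXCL12 at 2.77 and ACKR3 at 0.466 lie below it, and the median of the other chemokine receptors is 2.93.

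Likeness of pattern was measured among the 75 listed genes as the distance over 3 percentile ranks, which were peak density, strongest fold enrichment in the window and distance from the TSS to the nearest summit, all in the 1 library. The genes most like CXCR4 were ADM, whose product adrenomedullin is also bound by ACKR3, ARRB1 and HIF1A, with distances of 10.0, 10.9 and 17.9 percentile points. For CXCL12 they were VHL (6.49), RAC1 (9.34) and CCR8 (25.9). For ACKR3 they included CCRL2 (1.60) and CCR2 (3.74), whose TSSs lie on chromosome 3 in a shared stretch without a peak of 283 kb.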

How the data were processed

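Chromatin of D283 tumorspheres was measured in 1 OTX2 ChIP and 1 input library. The authors mapped paired-end reads to GRCh38 with bowtie2 2.2.4 and ran MACS2 2.1.0.20140616 with 1 fragment kept per position, a genome size of 2700000000 and q-values up to 0.05. Blacklist masking is stated by the study. The deposited pileup is a signal, the ChIP coverage scaled by the peak caller. The deposited fold enrichment is a ratio, and significance was deposited as −log10 p and −log10 q. Peaks were called once for the single ChIP library, not per replicate.

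Gene records are of GENCODE release 44, whose GRCh37 version lists the GRCh38 position of every exon. Those positions were used directly. Fragments were read back as pileup divided by 0.735, a step inferred from the values, and 100% of pileups came out whole within 0.02 fragments. Local input was computed as (pileup + 1) / fold enrichment − 1. Percentages of genes are shares with a lower value. Peak counting was tested on simulated data. The tools were scipy 1.17.1, numpy 2.4.6, matplotlib 3.10.9 and pandas 2.3.3 under Python 3.11.15.

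The 3 genes and the lists were chosen with earlier results of these data known. Named by rule were all peaks of the 3 genes, protein-coding neighbours, the 5 genes per list most enriched near the TSS, up to 5 list genes without a peak, and the 3 most alike genes per member. AKT1 and CXCL11 were named after their values were seen. Some results covered by this rule are not reported here. Stricter peak thresholds, the summit as criterion, other windows, RefSeq records and any transcript start were tried as alternatives.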

Additional observations from a re-analysis of the deposited data

How the results depend on the processing

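No paired analysis was possible because each group held a single library, and no replicate could be left out. At 5-fold enrichment or more, the peaks numbered 2 at CXCL12, 9 at CXCR4 and 0 at ACKR3, and with the record extended by 50 kb they numbered 3, 9 and 0, both fewer by construction. The count stayed within 1.5 times under a −log10 q of at least 5, the summit as criterion and RefSeq gene records. Chemokine receptors with a peak near the TSS fell to 3 with 1 kb on either side of the TSS, again a narrower window. The counts of axis partners, and of receptors under every other alternative, stayed within 1.5 times. CXCR4 had the most peaks and ACKR3 the fewest of the 3 genes under all 5 alternatives. The shallower input limits the precision of each fold enrichment, and low peaks rest on few fragments.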

Other observations

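The other ligands of the CXC, C and CX3C classes, secreted or membrane-bound chemokines, had a median of 10 OTX2 peaks in the extended window and 4.95 per 100 kb, above the 6 and 2.77 of CXCL12 and below the medians of 13 and 5.18 over all protein-coding genes. All 18 had a peak in the window, against 97.3% of all genes, and 7 (38.9%) had one near the TSS, against 57.2%. CXCL10, an interferon-induced ligand of CXCR3, had the strongest peak near its TSS, with a fold enrichment of 13.0, followed by CXCL9 (7.11), CXCL17 (5.99), XCL2 (5.44) and CXCL3 (4.33). Most of these genes lie on chromosome 4, many side by side, and the 233 gene-to-peak assignments came from 131 distinct peaks. CXCL11, which binds CXCR3 and ACKR3 and was counted here and among the axis partners, had 23 peaks in its window and none near the TSS.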
